A study of Rattus norvegicus with 6 samples.

Results

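CD antigens are cell-surface proteins that were numbered as antibodies to them were grouped, mostly on blood cells, so the name says how a protein was found and not which cell makes it. Some are restricted to leukocytes, such as the co-receptors CD4 and CD8 of T cells, whereas others, such as the tetraspanins CD9, CD63, CD81 and CD151, organise membrane proteins in most cell types. In brain vessels the products of Cd34 and Cd36 are best known from endothelial cells and endosialin, the product of Cd248, from pericytes and fibroblasts. The genes described here are the rows of the expression table whose symbol is Cd followed by a number, with at most 1 further letter and 1 further digit and without the invariant chain gene, together with Ptprc, Coro1a, Csf1r and Lat. There were 42 such CD genes and, with the 4 named leukocyte genes, 46 genes of the 14607 in the table.

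Messenger RNA had been sequenced from 2 kinds of mural cell, mid-capillary pericytes (mcPCs) and the smooth muscle cells of arterioles (VSMCs), of the cortex of male Sprague-Dawley rats aged 4 to 5 weeks, with 3 samples per cell type. The labels name no treatment and no altered allele in either group, and each isolation pooled several rats that had been perfused to clear the blood. VSMCs were taken positively, with a lectin, from arterioles from which cells with CD31 and CD11b had been removed. mcPCs were the cells of the filtrate left over once cells with CD31, CD11b, GLAST or O4 had been removed, so nothing in that sort selected for a pericyte antigen. The values are the authors' means of each cell type. They carry no spread between samples, and no test between the cell types was made. An interval given below is an exact 95% counting interval (Clopper-Pearson) from the reads of a cell type. It covers counting error only and not the spread between samples. It may be too narrow even for counting error, since PCR reads are not independent molecules.

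Reads assigned to genes came to 61978061 per VSMC sample and 47990230 per mcPC sample. Marker lists went mostly in the direction of the labels. In VSMCs all 15 genes of a smooth muscle list exceeded mcPCs by 2-fold or more. Of 12 pericyte genes, 9 passed that limit towards mcPCs, 1 (Notch3) passed it towards VSMCs and 2 (Rgs5 and Cspg4) lay between. The lists were chosen with earlier results of these data known. They hold genes, such as Myh11, Acta2, Kcnj8 and Abcc9, that the paper already described from these samples as apparently specific to 1 cell type. These counts are therefore not an independent check of the labels. Genes of an erythrocyte list held 57.7% of all TPM (an abundance scaled by transcript length to the same total in each sample) in mcPCs and 0.783% in VSMCs, which lowers the TPM of the other genes in mcPCs. For that reason a difference is given below as the log2 ratio of the authors' mean normalised counts, mcPCs over VSMCs. On that scale the median of all genes was 0.01, whereas on the ratio of mean TPM it was -1.79, and -0.57 with the erythrocyte genes taken out of the TPM totals. The rest of that shift was not tested.

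Of the 46 genes, 29 exceeded VSMCs in mcPCs by 2-fold or more, 4 were at least 2-fold higher in VSMCs and 13 lay between. The same limit was passed by 22.0% of all genes of the table towards mcPCs and by 13.9% towards VSMCs. The median log2 ratio of the 46 genes was 1.55. The difference was large for many of them: 17 were at least 16-fold higher in mcPCs, where 4.38% of all genes were, and 1 was at least 16-fold higher in VSMCs, where 1.51% of all genes were. In bulk RNA, more cells of a kind and more RNA per cell cannot be told apart. On every one of the 7 scales computed, 19 genes stayed at least 2-fold higher in mcPCs and the same 4 genes at least 2-fold higher in VSMCs.

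**Figure D1:**
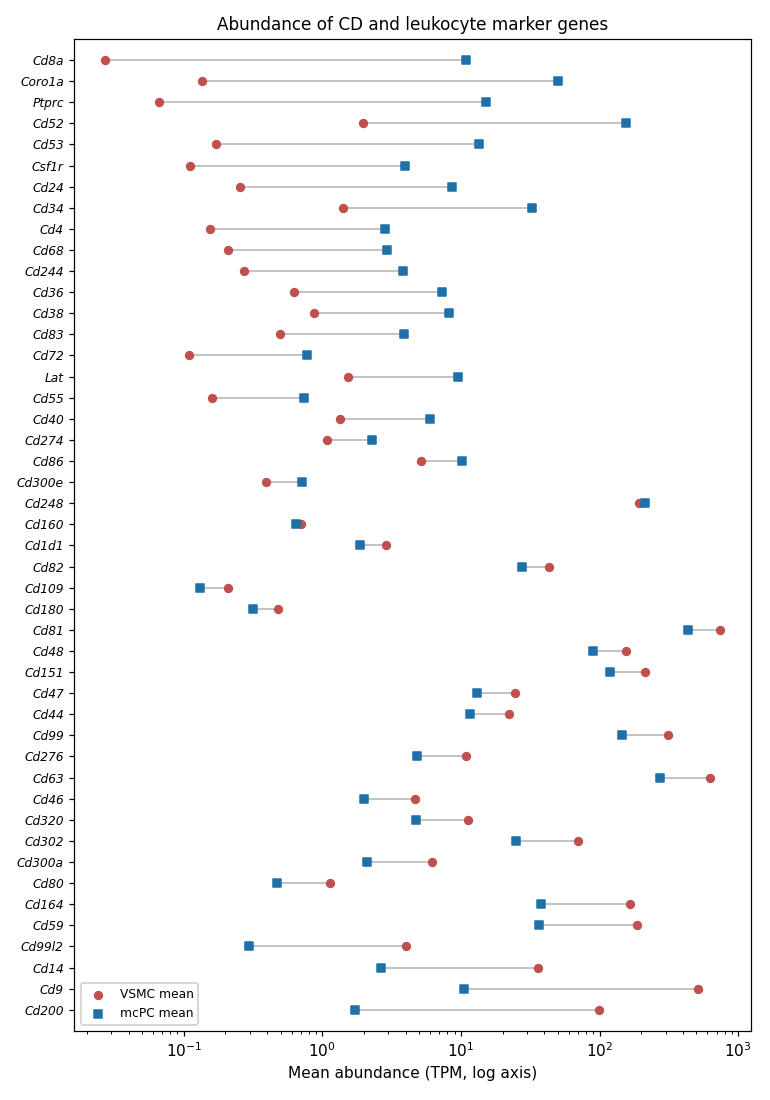
Mean abundance of each of the 46 genes in VSMCs (circles) and mcPCs (squares), in TPM on a log axis, ordered by the log2 ratio of mean normalised counts. Ptprc and Coro1a lay under 0.2 TPM in VSMCs and at 15.1 and 50.5 TPM in mcPCs, whereas Cd81 and Cd63 were high in both cell types and Cd9 and Cd200 were high in VSMCs.

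Genes found in nearly all leukocytes were among those with the largest ratios. Ptprc encodes CD45, the phosphatase on the surface of all nucleated blood cells, and had a mean of 0.0659 TPM in VSMCs against 15.1 TPM in mcPCs. Its reads, summed over samples and runs, were 36.2 in VSMCs and 15346 in mcPCs, and its log2 ratio was 9.66 (counting interval 9.19 to 10.18). Coro1a, which encodes the leukocyte actin regulator coronin 1A, had 0.136 and 50.5 TPM and a log2 ratio of 10.31 (counting interval 9.71 to 10.99). Both genes stood in the lowest 5% of the table in VSMCs, above 2.03% and 4.87% of genes, and above 83.4% and 95.4% of genes in mcPCs.

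Cd52, for a small glycoprotein of lymphocytes and monocytes, reached 154 TPM in mcPCs, where only Cd81, Cd63 and Cd248 of the 46 genes were more abundant, and had 1.96 TPM in VSMCs, a log2 ratio of 8.17. Cd53, a tetraspanin of leukocytes, had 0.170 and 13.6 TPM in VSMCs and mcPCs and a log2 ratio of 8.08. Cd38, for an ectoenzyme that consumes NAD, had 0.869 and 8.27 TPM and a log2 ratio of 5.05. Within the list of pan-leukocyte genes, 5 of the 6 with a row were at least 2-fold higher in mcPCs, and the median log2 ratio was 6.61. The sixth was Cd44, the hyaluronan receptor, which is not restricted to blood cells. It had 22.4 TPM in VSMCs against 11.7 TPM in mcPCs and a log2 ratio of 0.81.

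Cd48, like Cd44, had a smaller ratio than the other 4 pan-leukocyte genes. It encodes a GPI-anchored ligand of the receptor CD244, and had 154 TPM in VSMCs against 89.3 TPM in mcPCs, from 22989 and 24322 reads. Its log2 ratio was 1.04 (counting interval 1.02 to 1.07), so it passed the 2-fold limit narrowly. In VSMCs Cd48 was above 93.3% of all genes, and its TPM was 2342 times that of Ptprc, against 5.92 times in mcPCs. The multiple in VSMCs divides by a Ptprc value that rested on only 36.2 reads, so it is imprecise. Cd244, which lies in the same gene cluster with 3 coding genes between them in the RefSeq annotation of GRCr8, had 0.271 TPM in VSMCs against 3.84 TPM in mcPCs and a log2 ratio of 5.52. The ligand was therefore well measured in both cell types and its receptor mainly in mcPCs.

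**Figure D2:**
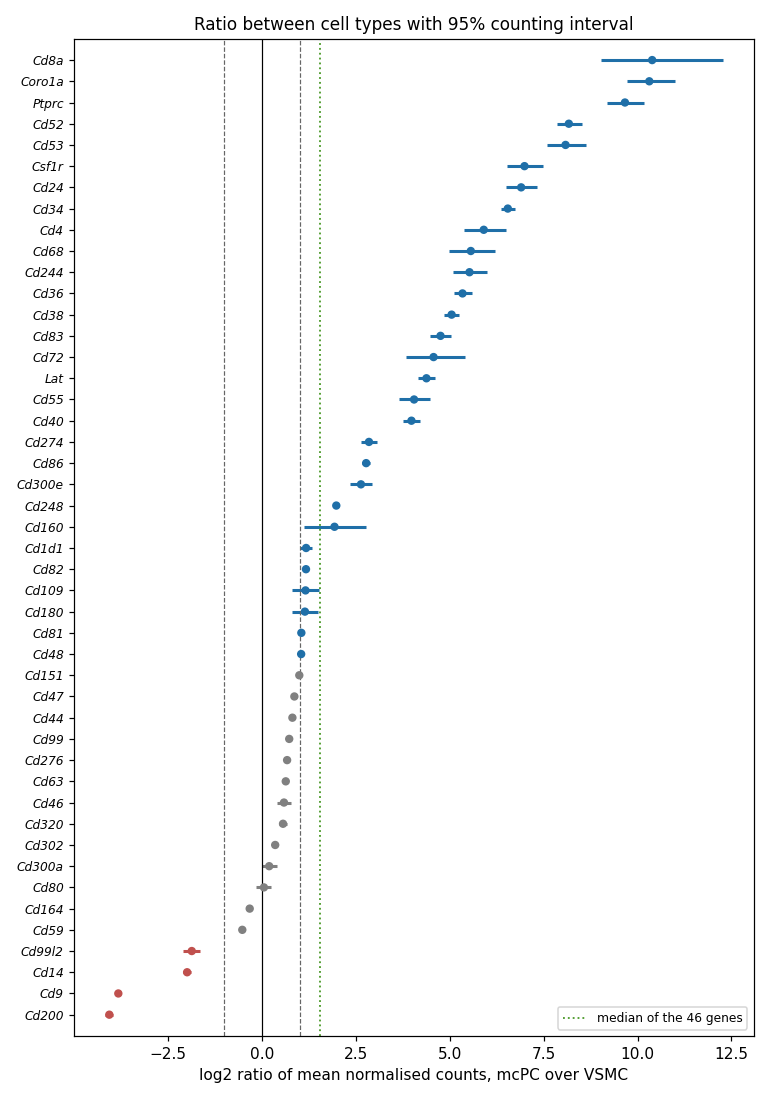
Log2 ratio of the authors' mean normalised counts, mcPCs over VSMCs, for each of the 46 genes (points) with its exact 95% counting interval (bars, often shorter than the point). Dashed lines mark 2-fold and the dotted line the median of the 46 genes, 1.55; the ratios ran from 10.39 for Cd8a to -4.07 for Cd200.

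Of the list of T cell and natural killer (NK) cell antigens, 5 of 19 genes had a row, and all 5 were at least 2-fold higher in mcPCs. Cd8a, for the co-receptor chain that T cells and, in rats, also NK cells carry, had the highest ratio of the 46 genes. It rested on 4 reads in VSMCs and 2819 in mcPCs, with 0.0272 and 10.9 TPM, and its log2 ratio of 10.39 had a wide counting interval of 9.03 to 12.26. Cd4, for the co-receptor of helper T cells that rat macrophages also carry, had 0.156 and 2.84 TPM and a log2 ratio of 5.90. Lat, for the adaptor that links the T cell receptor to its signalling enzymes, had 1.53 and 9.48 TPM and a log2 ratio of 4.38 (counting interval 4.16 to 4.60). Cd160 had 0.698 and 0.650 TPM from only 57 reads in all, the fewest of the 46 genes, and a log2 ratio of 1.93 (counting interval 1.12 to 2.77). The genes of the invariant chains of the T cell receptor complex, Cd3d, Cd3e, Cd3g and Cd247, had no row, nor did Cd2, Cd5 or Cd28. A gene was listed only where each sample, those of VSMCs included, had at least 1 read. A missing row, here or below, therefore does not show absence from mcPCs.

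Of the 11 genes of a B cell list, 4 had a row and all 4 were at least 2-fold higher in mcPCs. Cd79a and Cd79b, for the signalling chains of the B cell receptor, and Cd22 had none. Cd72, for an inhibitory receptor of B cells, had 0.109 and 0.775 TPM in VSMCs and mcPCs and a log2 ratio of 4.57. Cd180, for a Toll-like receptor homologue, had 0.481 and 0.315 TPM and a log2 ratio of 1.14 with a counting interval of 0.81 to 1.48 that included 2-fold. Cd40, the receptor through which T cells activate B cells and macrophages, had 1.34 and 6.01 TPM and a log2 ratio of 3.98. Cd24, a small mucin-like antigen of immature blood cells and also of neurons and epithelia, had 0.254 and 8.69 TPM and a log2 ratio of 6.90. It has near-identical copies in many genomes, among which the authors' estimation could divide its reads.

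The myeloid genes moved in both directions. Of 20 listed, 10 had a row, of which 6 were at least 2-fold higher in mcPCs, 1 was higher in VSMCs and 3 lay between. Csf1r, the receptor on which microglia and macrophages depend, had 0.111 TPM in VSMCs against 3.94 TPM in mcPCs and a log2 ratio of 6.99 (counting interval 6.53 to 7.49). Cd68, for a lysosomal protein of macrophages, had 0.210 and 2.94 TPM and a log2 ratio of 5.56. Cd83 and Cd86, which mark activated antigen-presenting cells, had log2 ratios of 4.75 and 2.77, with 3.89 and 10.1 TPM in mcPCs. Cd80, which binds the same T cell receptors as the product of Cd86, had a log2 ratio of 0.05, so that Cd86 exceeded Cd80 in TPM by 4.61 times in VSMCs and by 21.4 times in mcPCs. Cd300e and Cd1d1 had log2 ratios of 2.63 and 1.17. Cd302, a C-type lectin receptor gene, had 69.8 TPM in VSMCs against 25.0 TPM in mcPCs and a log2 ratio of 0.35. Cd300a had 6.22 and 2.11 TPM and a log2 ratio of 0.19, with a counting interval of -0.01 to 0.39. Cd300a and Cd300e belong to a family of similar genes, so the division of reads among its members is uncertain.

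Cd14 went the other way. Its product binds bacterial lipopolysaccharide together with Toll-like receptor 4 and is used as a marker of monocytes. It had 35.9 TPM in VSMCs, from 6367 reads, and 2.64 TPM in mcPCs, from 857.0 reads, and its log2 ratio was -1.99 (counting interval -2.10 to -1.89). In VSMCs it was above 73.8% of all genes, where Ptprc was above 2.03%. Cd163 and Cd33, further myeloid antigens of the list, had no row.

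The genes of the antigens used in the sort were looked up beside these values. Pecam1 (CD31) and Itgam (CD11b) had no row, which does not show that they were absent from mcPCs. Slc1a3 (GLAST), which was used to deplete the filtrate only, had 0.306 TPM in VSMCs against 12.7 TPM in mcPCs and a log2 ratio of 7.15. Among 21 microglia and macrophage genes, 9 had a row, with a summed level of 46.3 TPM in VSMCs against 194 TPM in mcPCs, of which Lyz2 alone held 131 TPM in mcPCs. 7 of the 9 were at least 2-fold higher in mcPCs. Defining genes of resting microglia were low, with 0.978 TPM for Cx3cr1, 0.408 TPM for Tmem119 and 2.28 TPM for C1qa in mcPCs, and P2ry12, Trem2, Tyrobp and Aif1 had no row.

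Genes of other blood cells were measured beside them. Of 20 T and NK cell genes, 5 had a row, namely Zap70, Lck, Prf1, Klrd1 and Ncr1, and all were at least 2-fold higher in mcPCs, with a summed level of 6.80 TPM in VSMCs against 52.1 TPM in mcPCs. Prf1, for perforin, had 9.34 TPM in mcPCs and Ncr1, an NK cell receptor gene, 3.30 TPM. Of 13 B cell genes, 6 had a row and 5 were at least 2-fold higher in mcPCs, each at or below 1.82 TPM there. The exception, Ebf1, is also known from mural cells and had 193 TPM in VSMCs. Of 15 granulocyte genes, 5 had a row, and their summed level was 2.25 and 9.46 TPM, of which S100a9 held 8.45 TPM in mcPCs. Platelet genes reached 1.21 and 0.562 TPM in sum, with Pf4 and Ppbp without a row. Of genes of cells of the brain tissue, 4 of 5 astrocyte, 5 of 5 neuron and 6 of 7 oligodendrocyte genes with a row were at least 2-fold higher in mcPCs, whereas of 10 fibroblast rows 5 were higher in mcPCs and 3 in VSMCs. The part of these cells, or of the erythrocyte genes given above, in the values of the 46 genes was not tested.

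**Figure D3:**
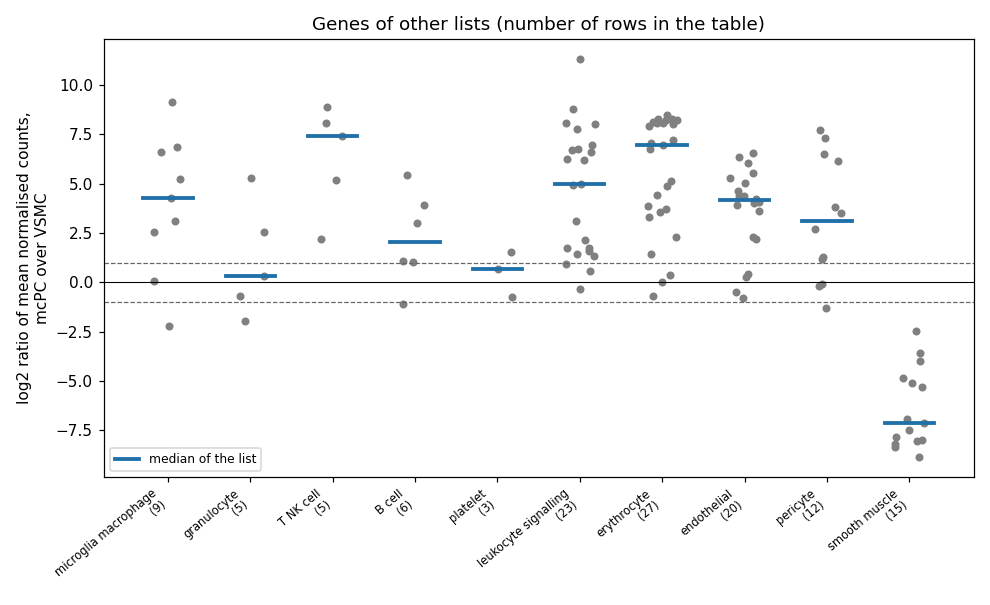
Log2 ratio of mean normalised counts, mcPCs over VSMCs, for the genes of 10 further lists (points, with the number of rows in the table in brackets); thick lines are list medians and dashed lines mark 2-fold. The medians were 4.26 for microglia and macrophages, 0.33 for granulocytes, 7.43 for T and NK cells, 5.01 for leukocyte signalling and -7.15 for smooth muscle.

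A list of leukocyte signalling and effector genes, which also holds surface receptors and lysosomal proteins, was looked up as well. Of its 48 genes, 23 had a row, of which 20 were at least 2-fold higher in mcPCs and none in VSMCs. The median log2 ratio of the 23 was 5.01. One of the 23 is Cd53 itself. Laptm5, for a lysosomal protein of haematopoietic cells, had 0.0533 TPM in VSMCs against 38.2 TPM in mcPCs and a log2 ratio of 11.34, which was the highest of the whole table. The 4 genes of the list with the highest mean TPM over both cell types had smaller ratios. Arhgdib had 170 TPM in VSMCs against 159 TPM in mcPCs, with a log2 ratio of 1.72. Cyba, Srgn and Lcp2 had log2 ratios of 1.60, 1.76 and 0.94. Lcp2, whose product (SLP-76) acts beside that of Lat in T cells, had 25.0 TPM in VSMCs, from 9659 reads. Spi1, for the myeloid transcription factor PU.1, had 0.192 and 1.75 TPM and a log2 ratio of 4.94.

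Promoter sequences are shown for the genes at both ends of the range of ratios. RefSeq promoters of GRCr8, an assembly other than the Rnor_6.0 of the expression table, were matched by gene identifier for 38 of the 46 genes (Cd244 to the entry named Cd244l1). Over the 250 bases before the start site, genes at least 2-fold higher in mcPCs had a median of 4 CpG dinucleotides in 23 promoters, those within 2-fold 17 in 11 promoters, and those higher in VSMCs 14.5 in 4 promoters. The median was 16 over the 10884 promoters of genes in the table and 12 over the 2329 of them at least 2-fold higher in mcPCs. Fewer than 5 CpG were counted in 52.2% of the promoters of the 46 genes that were higher in mcPCs, against 22.0% of promoters of all table genes higher in mcPCs. The last 120 bases before the start site are given, 5′ to 3′ on the strand of the gene, for the 4 genes that lead the T cell, pan-leukocyte and leukocyte tetraspanin groups and for the 2 highest in VSMCs relative to mcPCs. Capitals mark CpG.
Ptprc, chr13:52259747-52259866, minus strand: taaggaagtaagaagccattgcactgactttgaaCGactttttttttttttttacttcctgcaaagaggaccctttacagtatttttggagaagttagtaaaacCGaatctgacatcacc
Cd53, chr2:197087897-197088016, minus strand: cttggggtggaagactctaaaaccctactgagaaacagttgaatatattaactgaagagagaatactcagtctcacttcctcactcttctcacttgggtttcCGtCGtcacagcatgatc
Cd8a, chr4:104923996-104924115, plus strand: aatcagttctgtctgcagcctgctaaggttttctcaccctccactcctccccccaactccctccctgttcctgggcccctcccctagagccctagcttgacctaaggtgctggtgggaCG
Coro1a, chr1:190731104-190731223, minus strand: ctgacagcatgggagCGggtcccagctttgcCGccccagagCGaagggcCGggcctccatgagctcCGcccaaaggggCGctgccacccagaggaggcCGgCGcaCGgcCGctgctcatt
Cd9, chr4:159975359-159975478, minus strand: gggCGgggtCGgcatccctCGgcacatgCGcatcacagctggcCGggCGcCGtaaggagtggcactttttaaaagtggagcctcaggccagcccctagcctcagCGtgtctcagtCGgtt
Cd200, chr11:68916195-68916314, plus strand: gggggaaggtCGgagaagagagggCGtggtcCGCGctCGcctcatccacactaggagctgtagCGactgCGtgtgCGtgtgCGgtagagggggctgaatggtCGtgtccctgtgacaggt
The stretches of Ptprc and Cd53 held 2 CpG each and that of Cd8a 1, whereas those of Cd9 and Cd200 held 9 and 10. Over 250 bases Ptprc held 6 CpG. Fewer than 5 were also counted in 1 of the 4 promoters of genes higher in VSMCs, that of Cd14 with 2. The same held for 2 of the 11 promoters of genes within 2-fold.

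Coro1a, with a log2 ratio as large as those of Ptprc and Cd8a, held 10 CpG in its stretch, so a low count was not shared by all the leading genes. Cd24, Cd83 and Cd34 were likewise rich, with 28, 26 and 14 CpG over 250 bases. On either strand, the letters GAGGAAGT, which an ETS factor such as PU.1 can bind, occurred in 1 of the 38 promoters, that of Cd53, from 46 to 39 bases before the start, and in 2.08% of promoters of table genes. The letters GGGCGG, a GC box of Sp1-type factors, occurred in 47.4% of the 38 promoters and in 57.2% of promoters of table genes. A CArG box, the element bound by serum response factor, was in none of the 38 promoters and in 1.23% of those of table genes.

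Tetraspanins included the most abundant of the 46 genes. Cd81, whose product is found on most cells, was the highest of them in both cell types, with 745 TPM in VSMCs against 432 TPM in mcPCs. It was above 98.5% and 99.5% of all genes and had a log2 ratio of 1.05. Cd63, for a tetraspanin of late endosomes and exosomes, had 631 and 273 TPM and a log2 ratio of 0.63. Cd151, whose product binds laminin-binding integrins, had 215 and 120 TPM (119.5 before rounding) and a log2 ratio of 0.99, and Cd82 had 43.2 and 27.5 TPM and a log2 ratio of 1.17. These values straddled the 2-fold limit, and Cd151 and Cd81 were on either side of it although their log2 ratios differed by little.

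Cd9 stood apart from the other tetraspanins. With 515 TPM it was exceeded in VSMCs by Cd81 and Cd63 alone among the 46 genes, whereas it had 10.6 TPM in mcPCs, from 63883 and 2391 reads. The log2 ratio was -3.83 (counting interval -3.89 to -3.77), or 14.2-fold higher in VSMCs. Cd81 exceeded Cd9 in TPM by 1.45 times in VSMCs and by 40.8 times in mcPCs. With Cd53 in the opposite direction, the 6 tetraspanin genes ranged from -3.83 to 8.08, and Cd37, the other leukocyte tetraspanin of the list, had no row.

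Genes of a list of immune checkpoint ligands and related surface proteins, most of which restrain immune cells, also differed in direction. Cd200, for a membrane glycoprotein that quiets myeloid cells through its receptor, had the lowest log2 ratio of the 46 genes, -4.07 (counting interval -4.17 to -3.96). It had 99.0 TPM in VSMCs, from 24657 reads, and 1.73 TPM in mcPCs, from 768 reads. The gene of its receptor, Cd200r1, had no row. Cd274, for the checkpoint ligand PD-L1, had 1.08 TPM in VSMCs against 2.30 TPM in mcPCs and a log2 ratio of 2.85. Cd276, of the same B7 family, had 10.8 and 4.81 TPM and a log2 ratio of 0.67. Cd47, for the surface protein that inhibits phagocytosis through SIRPα, had 24.7 and 13.01 TPM and a log2 ratio of 0.86. The list also holds Cd160 and Cd40, of which Cd40 encodes an activating receptor. Of its 6 genes with a row, 3 (Cd40, Cd274 and Cd160) were at least 2-fold higher in mcPCs and 1 (Cd200) in VSMCs.

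The regulators of complement, which protect cells from their own complement, were represented by 3 genes. Cd59, which blocks the membrane attack complex, had 188 TPM in VSMCs against 36.5 TPM in mcPCs and a log2 ratio of -0.53. Cd46, a cofactor for cleavage of C3b, had 4.67 and 2.003 TPM and a log2 ratio of 0.58. Cd55, which speeds the decay of C3 convertases, was low in both cell types with 0.159 and 0.735 TPM, but its log2 ratio was 4.05 (counting interval 3.65 to 4.47). On levels, Cd59 was thus the main one of the 3 in both cell types.

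Of the genes known from endothelial, stromal and stem cells, Cd248 was the most abundant in mcPCs. It had 194 TPM in VSMCs against 214 TPM in mcPCs, above 94.6% and 98.8% of all genes, and a log2 ratio of 1.98 that rested on 55713 and 113828 reads. Its rank by TPM among the 46 genes was 3 in mcPCs and 6 in VSMCs. Cd34 had 1.40 TPM in VSMCs against 32.4 TPM in mcPCs and a log2 ratio of 6.54. Cd46, its neighbour with no coding gene between them in the RefSeq annotation, had a log2 ratio of 0.58, as given above. Cd36, a fatty acid and thrombospondin receptor of endothelial cells, platelets and macrophages, had 0.627 and 7.25 TPM and a log2 ratio of 5.34. Other endothelial genes were measured beside them. Of a list of 24, which holds Cd34 itself, 20 had a row, 16 were at least 2-fold higher in mcPCs and none in VSMCs, with Cldn5 at 0.643 and 15.4 TPM. Cd93 had no row. The part of endothelial RNA in the values of Cd34 and Cd36 was not tested.

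The rest of this group was closer between the cell types or higher in VSMCs. Cd99 had 310 TPM in VSMCs (309.6 before rounding) and 144 TPM in mcPCs and a log2 ratio of 0.72. Cd164, a sialomucin gene, had 167 and 37.7 TPM and a log2 ratio of -0.33, and Cd320, for the receptor that takes up transcobalamin, had 11.3 and 4.75 TPM and a log2 ratio of 0.56. Cd109, for a GPI-anchored protein of the α2-macroglobulin family, was low, with 0.209 and 0.131 TPM, and its log2 ratio of 1.16 had a counting interval of 0.81 to 1.51. Cd99l2 had 4.02 TPM in VSMCs against 0.295 TPM in mcPCs and a log2 ratio of -1.87 (counting interval -2.09 to -1.65). In levels, 5 genes (Cd81, Cd63, Cd9, Cd99 and Cd151) held 69.6% of the TPM of the 46 genes in VSMCs, and Cd81, Cd63, Cd248, Cd52 and Cd99 held 67.5% in mcPCs.

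The expression filter of the study, 0.8 TPM in VSMCs, was applied to the 46 genes. It kept 29 and removed 17, and each of the 17 was at least 2-fold higher in mcPCs. Picking genes low in VSMCs, the denominator of the ratio, by itself favours ratios towards mcPCs. The same share among all genes under the limit is not given here. Ptprc, Coro1a, Csf1r, Cd8a, Cd4, Cd53 and Cd68 were among those removed, whereas Cd52, Lat, Cd34 and Cd38 passed this TPM limit. The study also discarded the genes most enriched in mcPCs by its own fold changes, a step not applied here. A gene that passed the TPM limit, such as Cd52, may therefore not be in the study's final set. In mcPCs 38 of the 46 genes reached 0.8 TPM. Since the filter acts on VSMCs alone, the number at least 2-fold higher in mcPCs fell from 29 to 12, while that higher in VSMCs was 4 either way.

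Mean effective lengths, which move when a gene's reads come from different transcripts, differed by at least 1.1 times between the cell types for 4 of the 46 genes, or 8.70%, against 4.38% of all genes. For Cd36 the mean was 2195 bases in VSMCs and 1174 bases in mcPCs, from 155.5 and 1884 reads. Lengths of Cd44 were 2065 and 1823 bases, of Cd80 4206 and 3519 bases and of Cd99l2 2787 and 3114 bases. For Cd36 the ratio of counts scaled to the same total was 3.97 on the log2 scale, and that of the normalised counts, which take length into account, was 5.34.

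**Figure D4:**
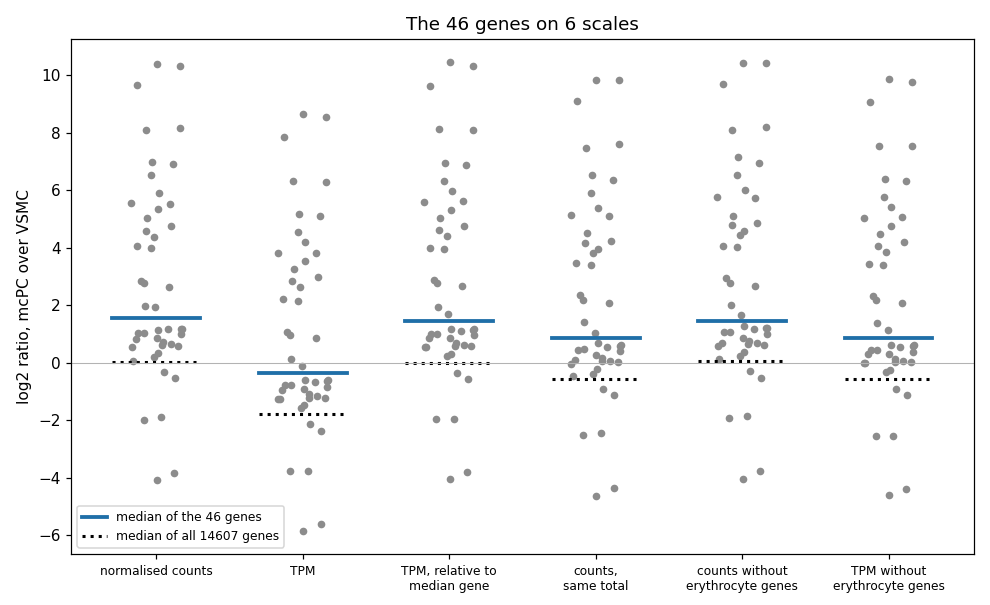
Log2 ratio, mcPCs over VSMCs, of each of the 46 genes (points) on 6 scales, with the median of the 46 genes (solid) and of all 14607 genes (dotted). On the TPM ratio both medians fell, to -0.36 and -1.79, while the 46 genes kept a higher median than all genes on each scale shown. The scales differ largely by a shift common to all genes, so that order was mostly built in.

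The choice of scale decided the direction of 18 genes, which were higher in mcPCs on normalised counts and lower on the ratio of mean TPM. Cd81, Cd48, Cd151, Cd63, Cd99 and Cd47 were among them, with log2 ratios of normalised counts between 0.05 and 1.93 over the 18. On the ratio of mean TPM, 74.8% of all genes were at least 2-fold higher in VSMCs. Relative to the median of all genes, the TPM ratio again placed 29 genes at least 2-fold higher in mcPCs and 4 in VSMCs. The 22 genes that were higher in mcPCs on both scales had log2 ratios of normalised counts of 1.98 and above, and all 19 that passed 2-fold on every scale had 2.85 or more.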

How the data were processed

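RNA-Seq was carried out by the authors on 3 VSMC and 3 mcPC samples with a stranded library kit on messenger RNA from 100 ng of total RNA (RNA integrity numbers 6.40 to 8.50). Per the submitters' notes and the methods, abundances were estimated with Salmon 0.8.0 on the cDNA set of Rnor_6.0, summed per gene with tximport and normalized with DESeq2. Rows were kept by the authors where no sample was without a read (minimum 1). The deposited table gives means of each cell type, in TPM, as estimated counts, as effective lengths and as normalized counts, a signal value (estimated counts divided by normalization factors). The estimated counts deposited are means per sequencing run. Multiplied by the 12 runs (3 samples in 4 runs each), 64.4% of the VSMC values and 67.2% of the mcPC values came out whole (within 0.001 reads), and these products are the reads given. A further 4 columns (log2 fold change, standard error, p-value, adjusted p-value) hold the authors' own comparison and were not used.

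The planned test per sample could not be run on means. Instead log2 ratios of the mean normalized counts were computed without a pseudocount, over all 14607 genes, and called past 2-fold. The counting interval was taken from the reads of a cell type and placed on the normalized scale. Members and lists were chosen with earlier results of these data known. Genes named are the 4 leukocyte genes, the 8 members most abundant in each cell type and the 8 highest and 8 lowest log2 ratios with at least 120 reads, together with every other member by class (3 members are in 2 classes) and up to 4 leading genes per list. Genes outside this rule, and all promoter measures, effective lengths and comparisons of pairs of genes, were chosen after their values were seen. RefSeq promoters carry the coordinates of GRCr8. They were checked to be written along the strand of the gene, since TATAAA near the start site was more frequent as written than in the reverse complement, for genes of either strand. Ratios were tested on simulated data. The tools were scipy 1.17.1, numpy 2.4.6 and pandas 2.3.3 under Python 3.11.15, with matplotlib 3.10.9 for plots. In all 82 symbols stand on more than 1 row, and rows were kept apart.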

Additional observations from a re-analysis of the deposited data

How the results depend on the processing

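The number of genes at least 2-fold higher in mcPCs was 29, and that higher in VSMCs 4. On the ratio of mean TPM the numbers were 19 and 14 (8.17% and 74.8% of all genes), the median log2 ratio of the 46 genes turned to -0.36, and Cd81 and Cd48 turned to -0.79 each. With the erythrocyte genes taken out of the TPM totals both stood at 0.44. The median was 0.86 on counts scaled to the same total, 0.87 on TPM without erythrocyte genes, 1.17 over genes with at least 120 reads and 0.81 with at least 0.8 TPM in VSMCs, a filter that also left 12 genes higher in mcPCs. A 4-fold limit left 21 genes higher in mcPCs and 2 genes higher in VSMCs, Cd9 and Cd200. The shares of all genes at that limit are not given here. With the whole counting interval past 2-fold, 27 and 4 genes were left (18.7% and 11.9% of all genes). Other settings (TPM relative to the median gene, counts without erythrocyte genes, a pseudocount of 1, a limit of 1.5-fold) left these numbers within 1.5 times. Of the cell type lists, the median of oligodendrocyte genes moved from 1.73 to 1.99 on TPM relative to the median gene. No paired analysis was possible because the values are means of each cell type, and for the same reason no replicate was left out. Precision is limited by the unknown spread between 3 samples and by reads, since 14 of the 46 genes had fewer than 120 reads in VSMCs and 1 in mcPCs.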
